A study of Homo sapiens with 8 samples.

Results

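The genes described here encode the enzymes that assemble and remodel asparagine-linked glycans (N-glycans), together with the enzymes that build the heparan sulfate chain. They were chosen by name, with earlier results of these data known, as 37 genes of the 16796 in the count files. Of the 37, 12 use UDP-N-acetylglucosamine (UDP-GlcNAc) as the sugar donor or belong to an enzyme that does. Expression was measured by RNA sequencing in LX-2 cells, an established human hepatic stellate cell line cultured in DMEM with 5% fetal bovine serum. Control cells received the vehicle DMSO and OGTi cells received OSMI-1, a small-molecule inhibitor of the O-GlcNAc transferase OGT, at 50 µM, both for 24 h. Each group held 4 libraries described as biological replicates, numbered 1 to 4, and a control and an OGTi library of the same number were compared as a pair. All libraries come from the same line, so the data describe LX-2 cells and not stellate cells of several donors. Both groups carry the same background, and no gene was deleted or silenced in either.

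An N-glycan begins as an oligosaccharide built on the lipid dolichol, on the cytosolic and then on the luminal face of the endoplasmic reticulum. The oligosaccharyltransferase moves the finished oligosaccharide to asparagines of nascent proteins, glucosidases and mannosidases trim it while the protein folds, and Golgi enzymes add branches, core fucose and galactose. Stellate cells send much collagen and other matrix glycoprotein through this route, and UDP-GlcNAc, which OGT also uses, enters it at the start, at the branches and in heparan sulfate.

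Of the 37 genes, 26 passed the DESeq2 test at an adjusted p-value of 0.05 or lower, 19 with higher and 7 with lower expression in OGTi cells. That is 70.3% of these genes, beside 46.6% of the 14028 genes with an adjusted p. Higher calls made up 51.4% of the genes, beside 22.7% of all genes, and lower calls made up 18.9%, beside 24.0%. Because the genes were chosen with earlier results known, these shares are descriptive, and their difference was not tested. These genes were also more highly expressed than most, with a median of 1845 normalized counts beside 653 over all genes tested. Among the 34 of them that averaged 100 normalized counts or more, 73.5% passed, beside 53.1% of all genes at that level. Changes were small. Without regard to sign, the 26 called genes had a median log2 fold change of 0.40, beside 0.52 for every called gene, and only ALG6 and ALG14 changed by 2-fold or more. The median log2 fold change over the 37 genes was 0.24, beside 0.0048 over all genes tested, and within pairs 1 to 4 it was 0.18, 0.26, 0.29 and 0.15. The 4 values of each group did not overlap for 24 genes (64.9%), beside 40.0% of all genes tested.

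**Figure D1:**
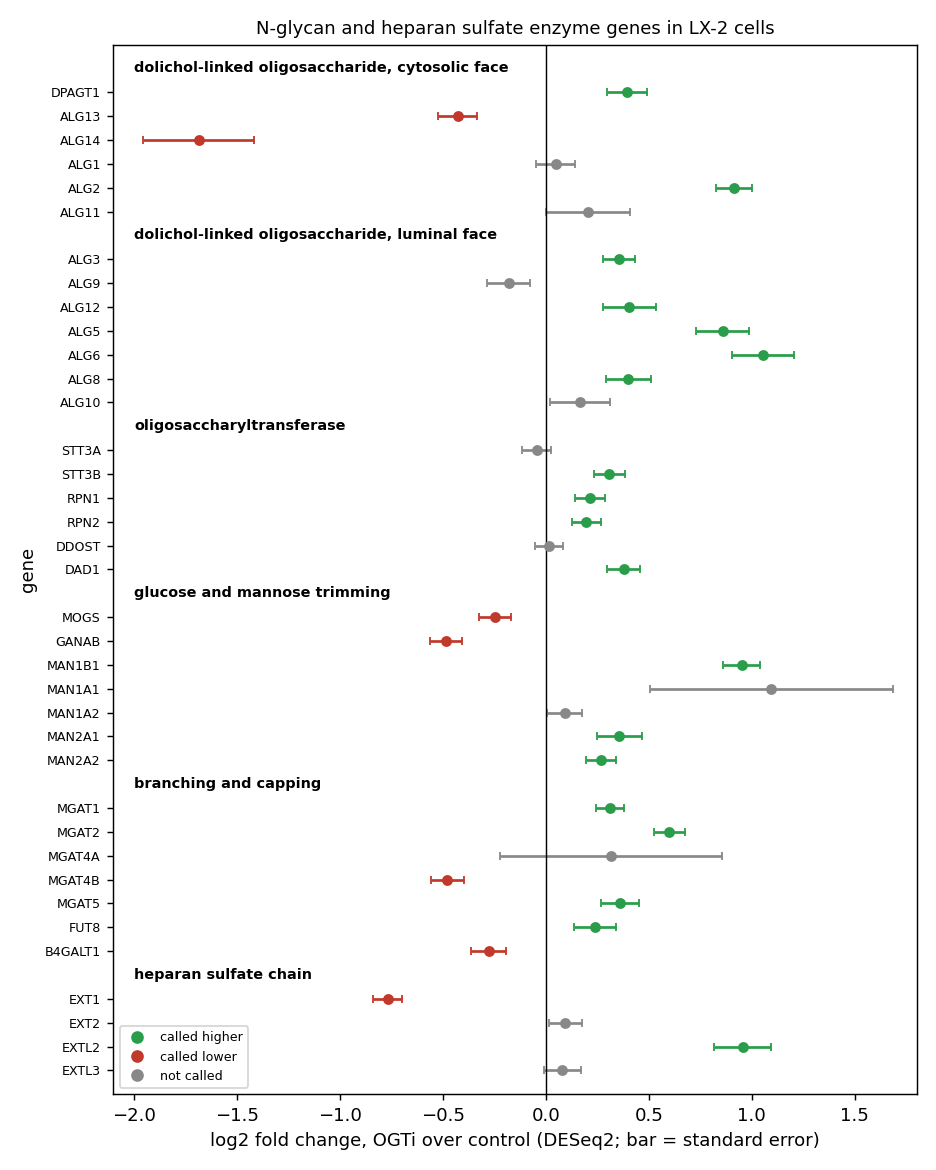
Log2 fold change of OGTi over control for each of the 37 genes (horizontal axis, with the standard error as bar), grouped by step of the pathway. Green points are the 19 genes called higher, red points the 7 called lower and grey points the 11 not called, and ALG14 lies farthest left at -1.69.

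Total counts per library ran from 24166756 to 28201215, and p-values measure the spread between these libraries. All 12 stellate or myofibroblast markers had a row and 10 exceeded 100 normalized counts on average, while the stellate markers DES and LRAT stayed between 0 and 5.75. The summed stellate markers were 239764 to 280098 in control and 178879 to 212055 in OGTi. COL1A1, COL1A2, COL3A1, PDGFRB, ACTA2, TAGLN, LOX and SPARC were called lower. TIMP1 went the other way, from 12613 ± 887 to 17868 ± 5087 (log2 fold change 0.47, adjusted p = 5.36e-06). VIM, the largest term of the sum in control, was not called (95086 and 89632, adjusted p = 0.323). Of 5 macrophage and leukocyte markers 4 had a row, and their sum was 2503 to 4090 in control and 5628 to 9405 in OGTi, nearly all of it CD68, while PTPRC stayed between 0 and 11.5. Summed cholangiocyte markers were 681 to 1151 in control and 955 to 1273 in OGTi, most of it SOX9, with KRT19 at 0 to 3.01. KRT7, the other cholangiocyte marker with a row, went the other way, at 67.6 to 141 in control and 32.1 to 77.1 in OGTi (log2 fold change -1.05, adjusted p = 0.000229). Endothelial sums were 49.7 to 91.1 and 17.0 to 33.8, and the hepatocyte sum, of 2 of 6 markers, was 19.5 to 74.0 and 26.0 to 74.0. The stellate, macrophage and endothelial sums did not overlap between the groups, and their part in the results was not tested. All cultures were of the LX-2 line, so these sums give marker transcripts in that line and do not count cell types. In bulk RNA, a change in part of the cells and a smaller change in all of them cannot be told apart. OSMI-1 acts on the OGT protein, so no transcript checks the labels directly. The OGT transcript measured 5636 ± 260.5 in control and 4146 ± 477 in OGTi (mean ± SD, n = 4; log2 fold change -0.45 ± 0.087, adjusted p = 1.48e-06). The transcript of OGA, which removes O-GlcNAc, measured 3159 ± 423 and 904 ± 85.3 (log2 fold change -1.80 ± 0.087, adjusted p = 1.69e-92).

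Promoter sequences are shown for 3 of the genes. ALG12 was the only gene, of the 29 with a promoter window, with an endoplasmic reticulum stress element (ERSE), MGAT2 had the highest rise among the branching genes, and ALG14 had the largest fall of the set. Each line gives the 170 bases before the annotated start on the strand of the gene, from RefSeq on GRCh38.p14, in lower case with matches to the CCAAT box and the ERSE in capitals.
ALG12: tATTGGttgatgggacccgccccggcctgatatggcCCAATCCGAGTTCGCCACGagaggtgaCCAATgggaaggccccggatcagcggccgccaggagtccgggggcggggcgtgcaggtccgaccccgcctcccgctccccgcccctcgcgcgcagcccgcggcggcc
MGAT2: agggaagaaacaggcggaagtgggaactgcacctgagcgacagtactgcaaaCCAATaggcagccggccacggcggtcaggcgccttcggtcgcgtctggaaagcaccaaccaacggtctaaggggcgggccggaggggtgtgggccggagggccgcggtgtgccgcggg
ALG14: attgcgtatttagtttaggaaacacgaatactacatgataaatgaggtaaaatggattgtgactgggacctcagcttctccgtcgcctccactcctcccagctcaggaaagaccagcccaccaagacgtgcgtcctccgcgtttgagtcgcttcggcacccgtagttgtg
They lie at chr22:49918439-49918608 (minus strand), chr14:49620629-49620798 (plus strand) and chr1:95072952-95073121 (minus strand). Windows from 250 bases before to 50 after the start were held for 29 of the 37 genes and for 27305 genes in all, and motifs were sought on both strands. The ERSE, in which CCAAT and CCACG are separated by 9 bases, occurred in 1 of the 29 windows and in 0.0806% of all windows. Its CCAAT letters are also counted as a CCAAT box, which occurred in 15 of the 29 windows and in 35.7% of all windows. The ATF4-type CARE element TGATGNAA occurred in the FUT8 window alone, beside 3.67% of all windows. The ERSE-II (ATTGG and CCACG 1 base apart, 0.0549% of all windows), the UPRE TGACGTGG (0.795%) and the CRE TGACGTCA (1.98%) occurred in 0 of the 29. The ALG14 window held none of the motifs searched. A match describes letters only. CRELD2, on the opposite strand, shares 168 bases (3.15%) of the canonical exons of ALG12 and was not called (log2 fold change 0.21 ± 0.11, adjusted p = 0.118).

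The oligosaccharide is begun on the cytosolic face by 6 of the genes, of which 2 were higher, 2 lower and 2 not called in OGTi (median log2 fold change 0.13). Called genes made up 66.7% of the 6, beside 46.6% of all genes. DPAGT1 adds the first GlcNAc-phosphate to dolichol phosphate and is the target of tunicamycin. Its normalized counts (chr11:119096025-119108331, minus strand, GENCODE 44 on GRCh38) were 1373, 1221, 1339.9 and 1281 in control replicates 1 to 4 and 1552, 1468, 1871 and 2020.5 in OGTi replicates 1 to 4. Every OGTi library lay above every control, and the mean went from 1304 ± 66.8 to 1728 ± 261 (log2 fold change 0.40 ± 0.10, adjusted p = 0.000213). ALG13 and ALG14 together add the second GlcNAc, ALG13 as the catalytic part and ALG14 as its membrane anchor. The counts of ALG13 (chrX:111665811-111760649, plus strand) were 1092, 1169.6, 1128 and 1137 in control and 744, 849, 875 and 905 in OGTi. All 4 OGTi values lay below the controls (log2 fold change -0.43 ± 0.095, adjusted p = 2.90e-05). ALG14 (chr1:94974405-95072951, minus strand) gave 149, 129.6, 149 and 155 counts in control and 43.9, 51.2, 62.5 and 28.05 in OGTi. Its mean fell from 146 ± 11.1 to 46.4 ± 14.4, to 0.31 of the control level (log2 fold change -1.69 ± 0.27, adjusted p = 3.15e-09), with the lowest value in OGTi replicate 4 and no overlap of the groups. So the transcript for the first GlcNAc step was higher, and both transcripts for the next step were lower.

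Of the 3 mannosyltransferase genes of the cytosolic face 1 was higher and 2 were not called. ALG1, which adds the first mannose, was not called, and the 95% interval of its log2 fold change was -0.14 to 0.23 (adjusted p = 0.715). ALG2, which adds the next mannoses (chr9:99216425-99221942, minus strand), gave 991, 1036, 914 and 1134 counts in control and 1754, 1926, 1954 and 2039 in OGTi. The groups were far apart, and the mean rose from 1019 ± 91.9 to 1918 ± 119.9 (log2 fold change 0.91 ± 0.088, adjusted p = 9.81e-24). ALG11 completes the cytosolic stage and gave 136, 147, 271 and 199.7 counts in control and 216, 189.8, 190.4 and 247 in OGTi, groups that overlapped (log2 fold change 0.20 ± 0.20, adjusted p = 0.437). Because 84.9% of the exon bases of its canonical transcript lie in UTP14C on the same strand (log2 fold change 0.090 ± 0.11, adjusted p = 0.513), the counts of ALG11 are uncertain.

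Of 7 genes for the luminal stage and its glucose donor, 5 were higher in OGTi and 0 were lower by DESeq2 (median log2 fold change 0.40). Called genes made up 71.4% of the 7, beside 46.6% of all genes. edgeR with the same block also called 5 higher and 0 lower, and 0 were lower at an unadjusted DESeq2 p of 0.05. ALG3, which adds the first luminal mannose, went from 1982 ± 138 to 2541 ± 231 counts (log2 fold change 0.36 ± 0.078, adjusted p = 2.40e-05). ALG12, a later mannosyltransferase (chr22:49900229-49918438, minus strand), gave 457, 473, 483 and 473 in control and 682, 699, 676 and 468 in OGTi. Replicates 1 to 3 rose in OGTi while replicate 4 stayed within the control range, so 3 of 4 pairs were higher (log2 fold change 0.41 ± 0.13, adjusted p = 0.00521). Without replicate 1, 2 or 3 its adjusted p was 0.0598, 0.0770 and 0.0517. ALG9, the mannosyltransferase between them, was not called (log2 fold change -0.18 ± 0.10, adjusted p = 0.150), and 31.7% of its canonical exon bases are shared with another annotated gene on the same strand.

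Of the 4 genes for the glucose steps 3 were higher. ALG5 makes dolichyl-phosphate glucose, the donor for these steps (chr13:36949738-37000763, minus strand), and gave 355, 343, 459.7 and 408 counts in control and 625, 764, 654 and 788 in OGTi. All OGTi values exceeded the controls, with means of 391 ± 53.6 and 708 ± 80.5 (log2 fold change 0.86 ± 0.13, adjusted p = 3.07e-10). ALG6 adds the first glucose (chr1:63367575-63438553, plus strand) and gave 189, 198, 176 and 189 in control and 377, 349.6, 393 and 446 in OGTi. Its mean rose 2.07-fold, from 188 ± 9.22 to 391 ± 40.4 (log2 fold change 1.05 ± 0.15, adjusted p = 3.25e-11), without overlap. ALG8, which adds the second glucose, went from 963 ± 145 to 1263 ± 76.5 (log2 fold change 0.40 ± 0.11, adjusted p = 0.00100). ALG10, which adds the last, measured 303 to 394 in control and 342 to 492 in OGTi and was not called (log2 fold change 0.16 ± 0.14, adjusted p = 0.370). Reads can be shared with its near-identical copy ALG10B (213 and 230.2 counts), so its value is uncertain, and the sum of both was also not called (log2 fold change 0.14, adjusted p = 0.395).

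**Figure D2:**
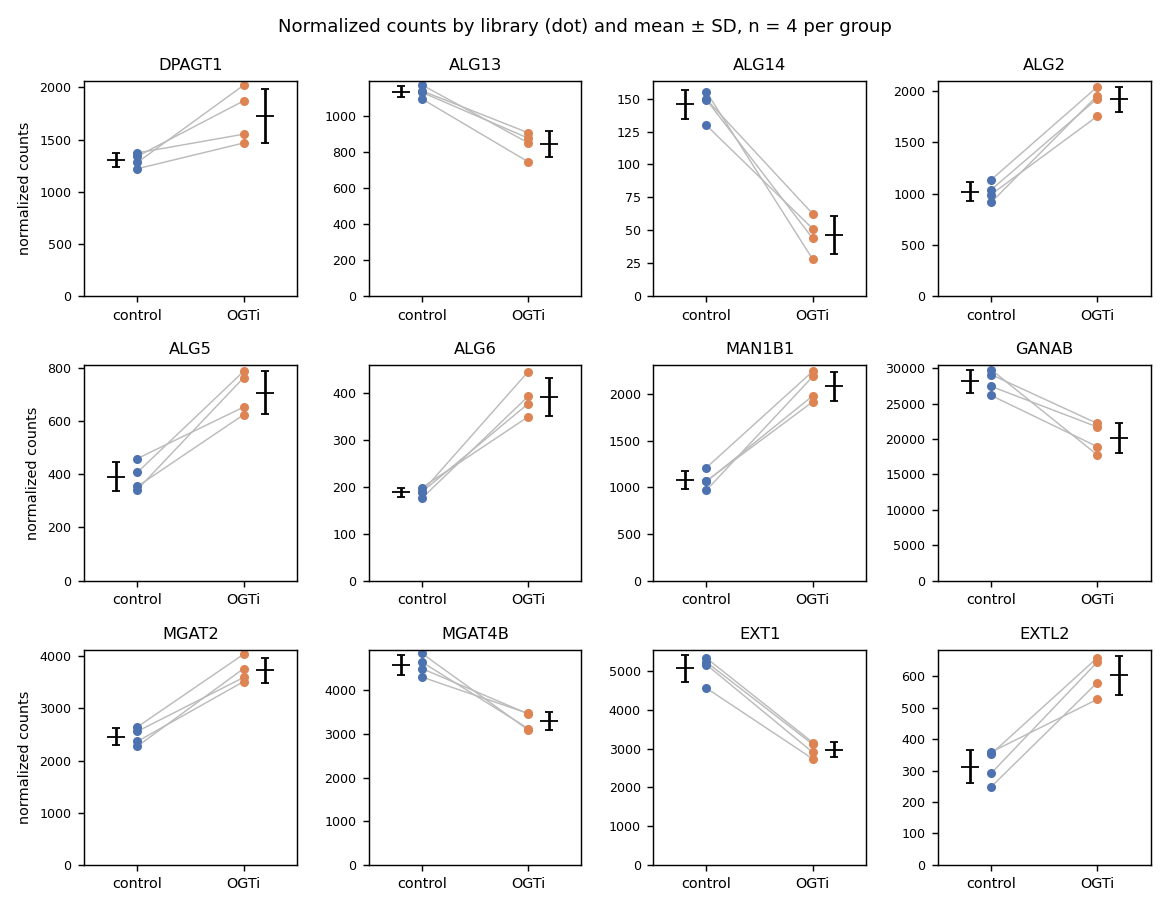
Normalized counts of 12 genes in each library (vertical axes, starting at 0), with control in blue, OGTi in orange, lines joining libraries of the same replicate number, and mean ± SD (n = 4) beside the dots. In each of the 12 panels all 4 OGTi values lie on the same side of all 4 control values.

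Of the 6 oligosaccharyltransferase genes, 4 (66.7%, beside 46.6% of all genes called) were higher and 0 lower in OGTi by DESeq2, with a median log2 fold change of 0.21. edgeR gave the same counts, and 0 were lower at an unadjusted p of 0.05. The complex has alternative catalytic subunits, STT3A, which acts on chains as they enter the lumen, and STT3B, which can act later. STT3B measured 2935, 3326, 3484 and 3315 counts in control and 3715, 3723, 4253 and 4499.7 in OGTi (log2 fold change 0.31 ± 0.075, adjusted p = 0.000173). STT3A measured 5909.5, 5900.4, 6368 and 6107 in control and 5324, 5779, 6005 and 6494 in OGTi and was not called, with a 95% interval of -0.18 to 0.093. The STT3A libraries overlapped between groups and those of STT3B did not. The small shared subunit DAD1, named for cell death on its loss, went from 2819.9 ± 269 to 3656 ± 143 (log2 fold change 0.38 ± 0.081, adjusted p = 1.71e-05). RPN1, which helps deliver substrates, rose from 7084 ± 203 to 8227 ± 594 (log2 fold change 0.21 ± 0.072, adjusted p = 0.00815), and its adjusted p was 0.145 without replicate 2. RPN2 rose from 12829 ± 336 to 14728 ± 1030.4 (log2 fold change 0.20 ± 0.070, adjusted p = 0.0129), and its adjusted p was 0.125, 0.142 and 0.0523 without replicate 2, 3 or 4. DDOST, another shared subunit, ran from 8205 to 9946 in control and 9021 to 10334 in OGTi and was not called (log2 fold change 0.016, 95% interval -0.12 to 0.15). The long noncoding gene PINK1-AS on the same strand shares 21.5% of the canonical exon bases of DDOST. Without replicate 2, 2 of the 6 genes were called higher.

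Trimming genes went both ways, with 3 of 7 higher, 2 lower and 2 not called (median log2 fold change 0.27). Their called share was 71.4%, beside 46.6% of all genes. Glucosidase I, encoded by MOGS, removes the outermost glucose, and glucosidase II, whose catalytic subunit is encoded by GANAB, removes the remaining glucoses. GANAB (chr11:62624826-62646726, minus strand) gave 29825, 26174, 27458 and 29124 counts in control and 17759.9, 18928, 21705 and 22212 in OGTi. All OGTi values lay below the controls (log2 fold change -0.49 ± 0.077, adjusted p = 1.97e-09). MOGS went from 2002 ± 92.04 to 1688 ± 129 (log2 fold change -0.25 ± 0.078, adjusted p = 0.00469), and its adjusted p was 0.0593 without replicate 4. So both glucosidase transcripts were lower, while the glucosyltransferase genes ALG6 and ALG8 and the donor synthase gene ALG5 were higher.

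The mannosidase gene with the clearest change was MAN1B1, whose product trims mannose in the early secretory pathway and takes part in disposal of misfolded glycoproteins. Its counts (chr9:137086857-137109189, plus strand) were 1213, 1064, 971 and 1070.2 in control and 2247, 1984, 2191 and 1920.3 in OGTi. The groups were well separated, with means of 1079.6 ± 99.8 and 2086 ± 158 (log2 fold change 0.95 ± 0.089, adjusted p = 6.67e-25). Of the Golgi mannosidase I genes, MAN1A2 was not called (log2 fold change 0.092 ± 0.086, adjusted p = 0.402). MAN1A1 was near the floor of detection, with 9.74, 12.2, 8.04 and 7.28 counts in control and 16.4, 30.1, 14.4 and 20.03 in OGTi, and was not called although its groups did not overlap (log2 fold change 1.09 ± 0.59, adjusted p = 0.118). The mannosidase II gene MAN2A2 went from 4550.4 ± 224 to 5489 ± 553 (log2 fold change 0.27 ± 0.074, adjusted p = 0.00111). MAN2A1, its relative, had overlapping groups of 1455 to 1998 and 1820.1 to 2503 (log2 fold change 0.36 ± 0.11, adjusted p = 0.00357), and its adjusted p was 0.0795 without replicate 1.

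Among the branching and capping genes 4 of 7 were higher, 2 lower and 1 not called (median log2 fold change 0.31). Their called share was 85.7%, beside 46.6% of all genes. MGAT1 places the GlcNAc that starts complex glycans and rose from 4412 ± 244 to 5469 ± 192 counts (log2 fold change 0.31 ± 0.067, adjusted p = 1.99e-05). MGAT2 starts the second antenna (chr14:49620799-49623481, plus strand) and gave 2644, 2273, 2559 and 2366 in control and 4039, 3764, 3594 and 3515 in OGTi. It was higher in all pairs without overlap (log2 fold change 0.60 ± 0.075, adjusted p = 1.97e-14). Its exon is covered to 92.0% by a long noncoding gene on the opposite strand, and by the study's methods RSEM counted by strand. MGAT5, which adds the branch of tetra-antennary glycans, rose from 2150.2 ± 235 to 2758 ± 263 (log2 fold change 0.36 ± 0.094, adjusted p = 0.000470).

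MGAT4B, which adds a further branch on the antenna begun by MGAT1, went the other way (chr5:179797597-179806952, minus strand). Its counts were 4647, 4497, 4303 and 4844 in control and 3123, 3457, 3469 and 3090.3 in OGTi. Every OGTi value was below every control (log2 fold change -0.48 ± 0.080, adjusted p = 1.60e-08). MGAT4A, which encodes an enzyme of the same activity, was barely expressed, at 12.2 to 19.8 counts in control and 17.3 to 24.1 in OGTi, and was not called (log2 fold change 0.32 ± 0.54, adjusted p = 0.668). FUT8, the core fucosyltransferase, went from 1219.9 ± 143 to 1434 ± 73.7 (log2 fold change 0.24 ± 0.10, adjusted p = 0.0448). That call was lost without the replicate block (adjusted p = 0.0503) and without replicate 1, 2 or 4 (0.343, 0.0528 and 0.157). B4GALT1, which adds galactose to the branches, had overlapping groups of 2538 to 2964 and 1781 to 2689 and was called lower (log2 fold change -0.28 ± 0.085, adjusted p = 0.00355), with an adjusted p of 0.0567 without the block and 0.0994 without replicate 2.

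The 4 heparan sulfate genes split into 1 higher, 1 lower and 2 not called (median log2 fold change 0.087). The called share of 50.0% was near the 46.6% of all genes and the 53.1% of those averaging 100 counts or more. EXT1 and EXT2 together form the polymerase that extends the chain. EXT1 on chromosome 8 gave 4563, 5339, 5236 and 5169 counts in control and 2737, 3160.0, 3112 and 2906 in OGTi. Its mean fell from 5077 ± 349 to 2979 ± 195 without overlap (log2 fold change -0.77 ± 0.068, adjusted p = 1.06e-27), the smallest adjusted p among the 37 genes. EXT2 gave 1901, 1978, 1857 and 1863 in control and 1955, 2027, 2059 and 2078 in OGTi and was not called, with a 95% interval of -0.058 to 0.25 for its log2 fold change. EXTL3, which starts the chain, was also not called (log2 fold change 0.079 ± 0.089, adjusted p = 0.498). EXTL2, which can add a hexosamine to the linker that carries the chain (chr1:100872372-100895179, minus strand), gave 353, 359, 248 and 291 in control and 659.8, 527, 581 and 646 in OGTi. All of its OGTi values exceeded the controls (log2 fold change 0.96 ± 0.14, adjusted p = 7.93e-11).

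The balance between related genes was compared as the log2 ratio of their counts within a library, which needs no size factor, in 6 pairs of genes. With 4 libraries against 4 the exact 2-sided permutation test cannot give a p under 0.0286. In the adjustment over the 6 pairs this p became 0.0429, a value that depends on 4 pairs having reached it. The STT3A to STT3B log2 ratio went from 0.90 ± 0.079 to 0.55 ± 0.061 (difference -0.35, adjusted exact permutation p = 0.0429). The EXT1 to EXT2 log2 ratio went from 1.42 ± 0.10 to 0.55 ± 0.079 (difference -0.86, adjusted exact permutation p = 0.0429). The polymerase genes thus came closer to equal counts. The EXTL2 to EXTL3 log2 ratio went from -2.70 ± 0.35 to -1.82 ± 0.14 (difference 0.88, adjusted exact permutation p = 0.0429). For MGAT4A to MGAT4B the difference was 0.78 at the same adjusted exact permutation p, with few MGAT4A counts behind it. MAN1A1 to MAN1A2 differed by 0.91 (adjusted exact permutation p = 0.0686) and MAN2A1 to MAN2A2 by 0.089 (adjusted exact permutation p = 0.657), both with overlapping groups. When the 4 differences within replicate numbers were tested instead, with a smallest possible p of 0.125, none of the 6 passed (adjusted p = 0.150 for the 4 pairs that passed above).

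**Figure D3:**
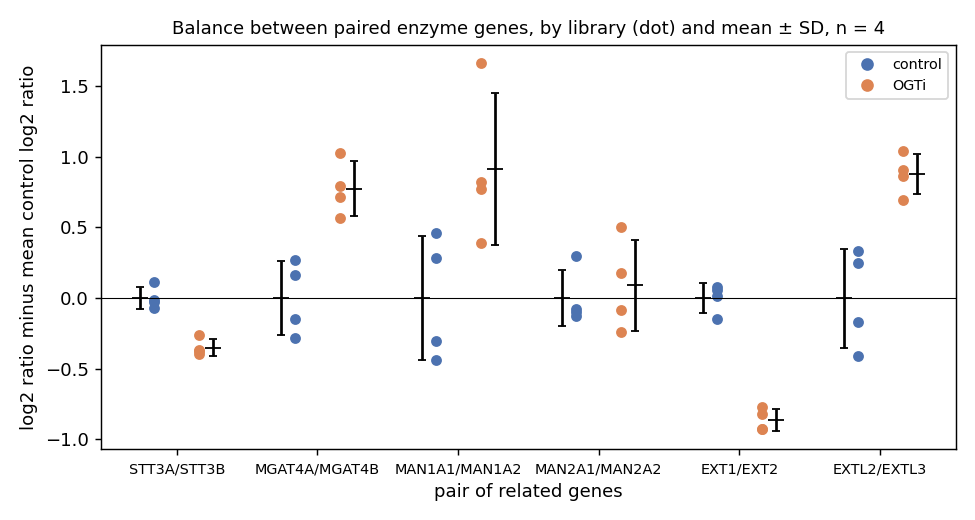
Log2 ratio of the counts of related genes in each library minus the mean control log2 ratio of that pair (vertical axis), for control (blue) and OGTi (orange), with mean ± SD (n = 4). The groups are separate for STT3A/STT3B, MGAT4A/MGAT4B, EXT1/EXT2 and EXTL2/EXTL3 and overlap for the mannosidase pairs.

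Levels of different genes were compared per kb of canonical transcript. GANAB was the most abundant in control cells at 7339 ± 429.5 normalized counts per kb, above RPN2 at 5761 ± 151 per kb. In OGTi cells GANAB measured 5255 ± 561 and RPN2 6613 ± 463 per kb. With canonical lengths RPN2 thus had the higher mean in OGTi. DDOST and DAD1 followed in control with 4804 ± 404 and 4123 ± 393 per kb. The lowest levels per kb in control were those of MAN1A1 at 1.86 ± 0.44 and MGAT4A at 1.85 ± 0.44, which lay within their spread of each other. ALG14 was next in rank at 15.5 ± 1.18 per kb in control and 4.95 ± 1.54 in OGTi. With the longest annotated transcript as the length GANAB had a higher mean than RPN2 in both groups, at 7206 in control and 5159 in OGTi, beside 4052 and 4652. DAD1 measured 5345 ± 210 per kb in OGTi with either length, slightly above GANAB and within its spread. With the longest lengths DDOST (4386) and DAD1 (4123) lay above RPN2 in control.

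**Figure D4:**
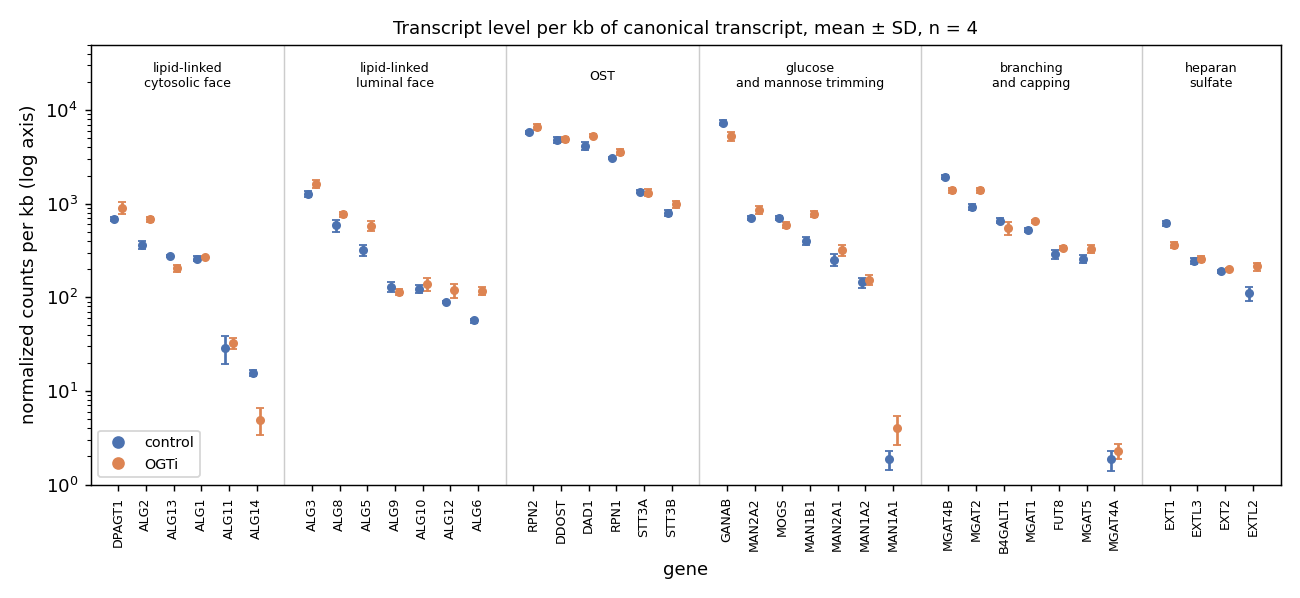
Normalized counts per kb of canonical transcript (log axis) for each of the 37 genes, grouped by step, as mean ± SD (n = 4) in control (blue) and OGTi (orange). GANAB and the OST (oligosaccharyltransferase) subunits RPN2, DDOST, DAD1 and RPN1 lie at the top, and MAN1A1 and MGAT4A lie at the bottom.

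The 12 genes that use UDP-GlcNAc comprised 5 higher, 4 lower and 3 not called, with a median log2 fold change of 0.20. The other 25 genes comprised 14 higher, 3 lower and 8 not called, with a median of 0.24. Higher calls made up 41.7% of the 12 and 56.0% of the 25, beside 22.7% of all genes. Lower calls made up 33.3% of the 12, above the 24.0% of all genes, and the 3 lower of the 25 were a share below it. The difference between the 12 and the 25 genes was not tested.

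A further 89 genes of the same pathways were listed, of which 81 had an adjusted p, and 33 were higher, 19 lower and 29 not called in OGTi (median log2 fold change 0.12). Higher calls made up 40.7% of the 81, beside 22.7% of all genes, and lower calls 23.5%, beside 24.0%. By list the called share ran from 50.0% to 84.6%, beside 46.6% of all genes and 53.1% of those averaging 100 counts or more. It was 50.0% for accessory oligosaccharyltransferase genes, 53.3% for other UDP-GlcNAc consumers and 55.6% for other late N-glycan genes. In the supply of dolichol and its sugar donors 5 of 10 were higher and 2 lower. Leaving out any replicate number left 2 higher, and 1 was lower without replicate 1, 2 or 4. SRD5A3, which acts in the conversion of polyprenol to dolichol, rose from 134 ± 11.6 to 360.4 ± 28.6 counts (log2 fold change 1.43 ± 0.16, adjusted p = 2.26e-18). DOLK, which phosphorylates dolichol, had a log2 fold change of 0.43 ± 0.11 (adjusted p = 0.000247), while DOLPP1, which recycles dolichyl pyrophosphate, had -0.65 ± 0.086 (adjusted p = 4.79e-13). Of 6 accessory oligosaccharyltransferase genes 3 were higher and 0 lower by DESeq2, with 1 lower at an unadjusted p of 0.05 and 1 by edgeR. The 3 called higher were OSTC (log2 fold change 0.42), KRTCAP2 (0.30) and TUSC3 (0.29), subunits that fit the complex to STT3A or STT3B. Without replicate 4 only TUSC3 was called higher, and KRTCAP2 was also not called without replicate 2 or 3.

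Of 13 genes for lectin-based folding and disposal 8 were higher and 3 lower, with 5 higher without replicate 4. Calnexin (CANX), the membrane lectin that holds glucosylated glycoproteins, rose from 15701 ± 1907 to 21326 ± 2174 (log2 fold change 0.44 ± 0.065, adjusted p = 9.84e-11). NGLY1, which strips N-glycans from discarded proteins in the cytosol, had a log2 fold change of 0.82 ± 0.11 (adjusted p = 1.09e-13). LMAN1, a cargo lectin for exit from the endoplasmic reticulum, fell from 5581 ± 947 to 3414 ± 302 (log2 fold change -0.70 ± 0.076, adjusted p = 5.17e-19). The 7 nucleotide sugar transporter genes held 2 higher and 2 lower, among them SLC35A1 for CMP-sialic acid (0.48), SLC35C1 for GDP-fucose (-0.47) and SLC35D2 (-0.38), the last of which had an adjusted p of 0.0880 without replicate 1, which left 1 transporter gene lower. Without replicate 3, 1 transporter gene was higher. Of 12 other late N-glycan genes 9 were tested, with 1 higher and 4 lower (median log2 fold change -0.25), and 2 lower without replicate 4. B4GALT2, a galactosyltransferase, fell from 3651 ± 119 to 1888 ± 197 (log2 fold change -0.96 ± 0.086, adjusted p = 3.18e-27). The branching gene MGAT5B had -0.49 ± 0.082 (adjusted p = 2.97e-08) and the sialyltransferase gene ST3GAL3 had 0.71 ± 0.11 (adjusted p = 3.98e-10).

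Of 14 genes for the heparan sulfate linker and its modification 11 were tested, with 6 higher and 2 lower. NDST1, which starts sulfation of the chain, gave 5559.8, 5939.9, 6820.4 and 6571 in control and 2244, 2121, 2615 and 2435 in OGTi. Its mean fell from 6223 ± 577 to 2354 ± 217 without overlap (log2 fold change -1.40 ± 0.070, adjusted p = 8.95e-86). XYLT2, which starts the linker, had -0.55 ± 0.090 (adjusted p = 1.20e-08), while B3GAT3, which completes it, had 0.96 ± 0.11 (adjusted p = 8.92e-17). Of 17 other enzymes that consume UDP-GlcNAc 15 were tested, with 2 higher and 6 lower (median log2 fold change -0.24), OGT among the lower. Without replicate 1, 2 or 4, 1 of them was higher. HAS2, a hyaluronan synthase, gave 176, 329, 568 and 336 in control and 17.4, 90.4, 49.03 and 39.1 in OGTi (log2 fold change -2.93 ± 0.25, adjusted p = 2.06e-29). POMGNT1, which extends O-mannose, had -0.37 ± 0.078 (adjusted p = 1.20e-05). Of 10 genes for the synthesis, salvage and breakdown of UDP-GlcNAc and its precursors, 6 were higher and 0 lower by DESeq2. At an unadjusted p of 0.05, 0 were lower, and edgeR called 0 lower. These genes act in both directions, so their count gives no direction for UDP-GlcNAc itself. GFPT2, a rate-limiting aminotransferase of hexosamine synthesis, gave 655, 784, 733 and 683 in control and 1822, 1745, 1123 and 1265 in OGTi (log2 fold change 1.04 ± 0.12, adjusted p = 1.19e-15). Its relative GFPT1 was not called (log2 fold change -0.0077 ± 0.10, adjusted p = 0.958). The salvage kinase NAGK had 0.53 ± 0.089 (adjusted p = 2.07e-08) and the deacetylase AMDHD2 0.73 ± 0.11 (adjusted p = 8.57e-10). Also higher were PGM3 (0.24) and the deaminase genes GNPDA1 (0.38) and GNPDA2 (0.52). GNPNAT1, UAP1 and UAP1L1 were not called.

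**Figure D5:**
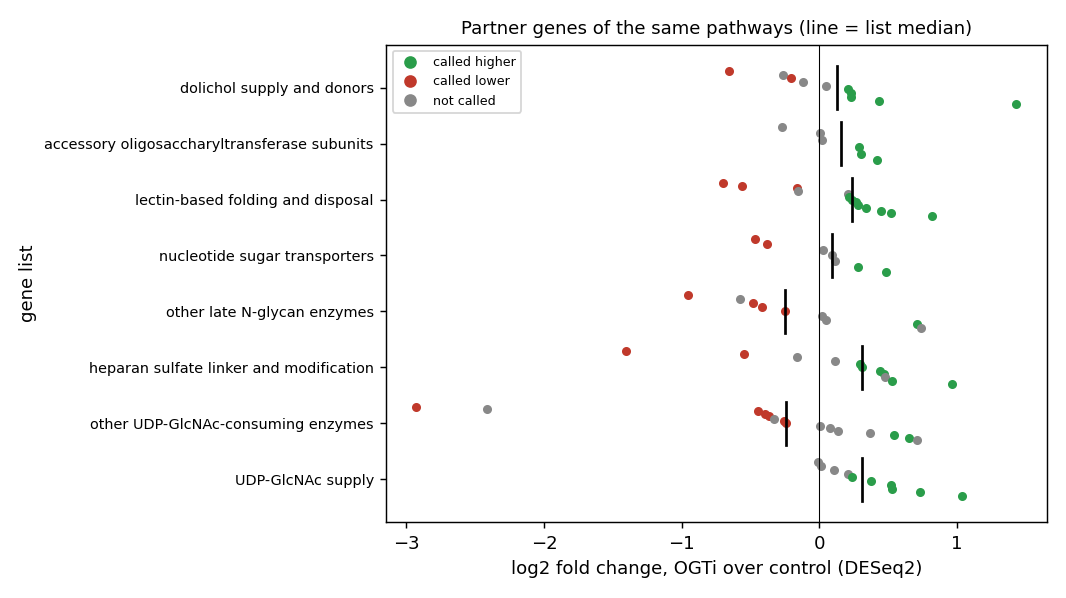
Log2 fold change of OGTi over control (horizontal axis) for each tested gene of 8 lists of the same pathways, green if called higher, red if called lower and grey if not called, with the list median as a black line. The medians run from -0.25 for other late N-glycan enzymes to 0.31, and HAS2 lies farthest left at -2.93.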

How the data were processed

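RNA was sequenced from 8 LX-2 cultures, 4 per group; the kit was strand-specific and selected polyadenylated RNA. Per the submitters' processing notes and the study's methods, the authors aligned reads to hg38 with Bowtie2 2.3.5.1 and counted them with RSEM 1.3.1. The deposited files, 1 per library, hold expected counts per gene (estimated counts that may be fractional), not scaled for depth, totalling 24166756 to 28201215 per library. A comparison table by the authors (DESeq2 1.36.0, fold changes and p-values) was not used. The treatment label of 1 control spells the vehicle DSMO, which was read as DMSO from its title.

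Expected counts were rounded, and genes with a total of at least 10 entered DESeq2 1.42.0 (R 4.3.3, Wald test, medians of ratios, replicate number as block, independent filtering, no shrinkage). A gene was called at a Benjamini-Hochberg adjusted p of 0.05 or lower over all genes. Normalized counts are counts over the size factor. The block follows the study's methods. Deviations from the group mean correlated between same-numbered libraries with Pearson's r of 0.379, 0.303, 0.138 and 0.269 for replicates 1 to 4, across 11702 genes with a mean of at least 50, which are not independent replicates. Control replicate 3 correlated more with OGTi replicate 4 (0.272) than with OGTi replicate 3. OGTi replicate 3 likewise correlated more with control replicate 4 (0.2015) than with control replicate 3 (0.138), so the pairing of replicates 3 and 4 is not clear in these values. Alternatives were no block, edgeR 4.0.16 with and without the block, TMM size factors, no count filter and leaving out each replicate number. The scripts were tested on simulated counts.

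The genes and lists were chosen with earlier results of these data known. All 37 genes are named, and of each list the up to 3 called genes with the largest Wald statistic. GFPT1, CRELD2, UTP14C, PGM3, GNPDA1, GNPDA2, GNPNAT1, UAP1 and UAP1L1 were added after values were seen. So were the comparison at a mean of at least 100 counts and the count of groups without overlap. Positions and lengths are from GENCODE 44 on GRCh38.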

Additional observations from a re-analysis of the deposited data

Results flagged for a closer look

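Of 86 groups of 4 values (each gene or log2 ratio in each group), 4 held a library set apart from the other 3, by a gap above Dixon's 95% critical value for 4 samples. Chance sets about 1 in 20 such groups apart, which is 4.3 here. ALG12 measured 468 normalized counts in OGTi replicate 4, beside 676 to 699 in the other OGTi libraries. DDOST, a subunit of the oligosaccharyltransferase, measured 10334 in OGTi replicate 2, beside 9021 to 9201. The little-expressed branching gene MGAT4A measured 24.1 in OGTi replicate 2, beside 17.3 to 18.0. The MAN2A1 to MAN2A2 log2 ratio was -1.17 in control replicate 3, beside -1.60 to -1.55 in the other controls.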

How the results depend on the processing

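Of the 26 called genes, 19 were called in the same direction in all 9 alternative fits, and the calls lost are given with ALG12, RPN1, RPN2, MOGS, MAN2A1, FUT8 and B4GALT1 in the report. Over these fits 15 to 19 of the 37 genes were higher, 6 to 7 were lower, and the median log2 fold change ran from 0.21 to 0.27. The uncalled genes ALG1 and DDOST changed sign without replicate 3: leaving out a replicate number, their log2 fold change ran from -0.0076 to 0.073 and from -0.027 to 0.052. Without the replicate block, in DESeq2 and in edgeR, 1 branching gene and 1 dolichol supply gene were lower. TMM size factors also left 1 dolichol supply gene lower. DESeq2 without the replicate block and edgeR with it called 1 accessory oligosaccharyltransferase gene lower. Leaving out a replicate number gave 2 to 4 oligosaccharyltransferase genes higher, 1 to 2 trimming and 1 to 2 branching genes lower, and 1 to 2 dolichol supply genes lower with 2 higher. It also gave 1 to 3 accessory subunit genes and 5 to 8 folding genes higher, 1 to 2 transporter genes lower and 1 to 2 higher, 2 to 4 late N-glycan genes lower, and 1 to 3 other UDP-GlcNAc consumers higher. The cause of these changes was not tested.

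With 3 against 3 libraries the exact permutation test of the ratios cannot go below 0.10, so its p says nothing on stability. Without a replicate number the log2 ratio differences ran from -0.40 to -0.31 for STT3A/STT3B, 0.60 to 0.86 for MGAT4A/MGAT4B, -0.89 to -0.82 for EXT1/EXT2 and 0.73 to 1.05 for EXTL2/EXTL3. For MAN2A1/MAN2A2 they ran from -0.074 to 0.25, negative without replicate 1. Tested within replicate number as a replicate block, the differences of -0.35, 0.78, -0.86 and 0.88 had an adjusted p of 0.150. Depth limits MAN1A1 and MGAT4A, whose means were under 25 counts.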

Other observations

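MGAT4B, the branching gene that was lower in OGTi, shares 105 bases (4.44%) of its canonical exons with SQSTM1 on the opposite strand, a gene looked up after the values of MGAT4B were seen. SQSTM1, which encodes an autophagy receptor, measured 8368 normalized counts in control and 23621 in OGTi (log2 fold change 1.5 ± 0.070, adjusted p = 2.66e-100 by DESeq2). Opposite-strand overlap also covers 25.2% of the canonical exon bases of ALG1 (EEF2KMT). Long noncoding genes on the opposite strand cover 39.1% of those of ALG12, 18.8% of DPAGT1, 15.4% of ALG10 and 12.4% of MAN2A2. By the study's methods RSEM counted by strand, so reads of the opposite strand were not meant to enter these counts.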
